A study of Mus musculus with 12 samples.

Results

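The question addressed here was where spleen and duodenum answered the same treatment differently, as measured by the tissue by treatment interaction, which is the AC H6 effect in duodenum minus the AC H6 effect in spleen. All 12 of the 12 libraries of the series entered it, 3 in each of 4 groups. The animals were wild type C57BL/6J mice, 2 months old, and the labels describe the study as one of lymphotoxin beta receptor (LTbR) induction. Each mouse received 100 ul at 1 mg/ml of either AC H6 or an isotype control, and RNA was taken from spleen or duodenum after 24 hours. The labels do not define AC H6 further. They do not say whether both organs came from the same mice, and the extraction text speaks of brain although every library is labelled spleen or duodenum.

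LTbR belongs to the TNF receptor family and is carried mainly by stromal, epithelial and myeloid cells, and its ligands are made by lymphocytes and innate lymphoid cells. Binding of a ligand stabilises the kinase NIK (Map3k14), which drives processing of the NF-kB precursor encoded by Nfkb2 and the entry of its product with RelB into the nucleus. In lymphoid organs the pathway is known for maintaining chemokines and adhesion molecules that place lymphocytes, and in the gut for lymphoid tissue formation and mucosal defence. The spleen is itself a lymphoid organ with steady ligand supply, whereas the duodenum is mostly epithelium.

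Totals ran from 13874091 counts (spleen isotype 1) to 45847467 (spleen AC H6 1), and 16655 of 23329 genes had enough counts to be tested. Levels below are CPM, a gene's count relative to its TMM-scaled library total, and effects are log2 changes of AC H6 over isotype with their standard error from edgeR. A gene was called where the Benjamini-Hochberg adjusted p of edgeR's quasi-likelihood test fell below 0.05. The tissue labels matched their markers: the epithelial gene Epcam lay at 1026 to 1471 CPM in the duodenal libraries and at 4.2 to 6.6 CPM in the splenic ones, and Spic, a factor of red pulp macrophages, at 0.09 to 0.31 and 57.9 to 70.3 CPM. Haemoglobin transcripts made up 12.1%, 19% and 7.59% of spleen isotype libraries 1 to 3 and 28.3%, 15.7% and 22.5% of their AC H6 counterparts. Exocrine pancreas transcripts made up 9.59% of the counts of duodenum AC H6 3, 2.5% in duodenum isotype 2 and at most 0.955% elsewhere. In bulk tissue, fewer cells of a type and less RNA per cell cannot be told apart.

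The response differed between the organs for 3331 of the 16655 genes (20%). For 1810 of them (10.9%) the duodenal effect lay above the splenic one, and for 1521 (9.13%) below. The single-organ tests of the same fit called 1390 genes in spleen (8.35%), of which 781 rose (4.69%) and 609 fell (3.66%). In duodenum they called 5297 genes (31.8%), 2603 upward (15.6%) and 2694 downward (16.2%). Across all genes tested the splenic and duodenal log2 effects had a Pearson r of 0.02 and the same sign in 51.7% of genes, which is a description over genes and not over replicates. The plot of both organs' effects shows this as clouds along each axis rather than along the diagonal.

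**Figure D1:**
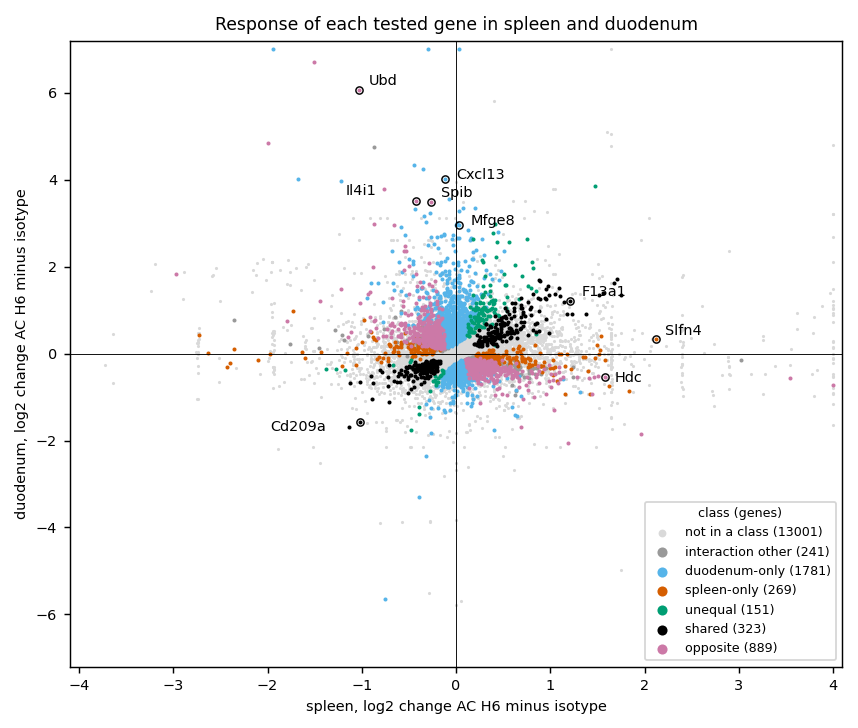
Log2 change of AC H6 over isotype in spleen (horizontal axis) against that in duodenum (vertical axis), 1 point per gene tested, coloured by response class. Axes end at 4 (spleen) and 7 (duodenum) log2 units, with 34 genes drawn at the edge, and Ubd stands apart at the top left with -1.02 in spleen and 6.08 in duodenum.

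Genes with a called interaction were sorted by what each organ did. Opposite responses, with both effects past an unadjusted p of 0.05 and of unlike sign, numbered 889 (5.34%), of which 424 were higher in duodenum and lower in spleen (2.55%) and 465 the reverse (2.79%). A spleen-only response, called in spleen and past no unadjusted p of 0.05 in duodenum, was found for 269 genes (1.62%), and its mirror image in duodenum for 1781 (10.7%), of which 1045 were rises (6.27%) and 736 falls (4.42%). Another 151 genes (0.907%) lay on the same side of 0 in both organs by unequal amounts, 129 above it (0.775%) and 22 below (0.132%), and 241 (1.45%) fitted none of these. Without a called interaction, 323 genes (1.94%) were called in both organs with the same sign and are given as shared. Such sharing says that no difference was called, not that the effects were equal.

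These class sizes depended on single spleen libraries more than the interaction itself did. Spleen calls numbered 432, 376, 400, 2685 and 461 without spleen isotype 1, isotype 3, AC H6 1, AC H6 2 and AC H6 3 in that order, and in the same order spleen-only genes numbered 111, 89, 83, 645 and 110. The shared genes, again in that order, numbered 117, 108, 127, 509 and 140. Opposite genes numbered 580 without spleen AC H6 1, and without spleen isotype 1 the unequal genes numbered 96 and the interactions below 0 numbered 943. Spleen-only genes numbered 167 without duodenum AC H6 2. Of the 3331 interactions, 1607 (48.2%) were called with the same direction under every one of 23 other settings that gave them an adjusted p. For the classes, the 23 settings held fits of 6 libraries per organ in place of a replicate block within treatment. Under all of these, 150 opposite, 15 spleen-only, 581 duodenum-only, 46 unequal and 26 shared genes kept their class. One setting in both sets of 23 had an erythroid covariate for the spleen libraries, set to 0 in duodenum. It was the mean log2 level of the erythroid list, which holds the haemoglobin genes. That list had a median splenic effect of 1.14, so the covariate overlaps with treatment and the 2 cannot be fully told apart. With it, 385 opposite, 36 spleen-only, 95 unequal and 62 shared genes were found. Leaving only this setting out, 267 opposite, 31 spleen-only, 659 duodenum-only, 56 unequal and 46 shared genes kept their class.

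Among the ligands, receptor, kinases and NF-kB subunits of LTbR signalling, most called differences lay above 0, those of Nfkb2, Relb and Map3k14 among them. Of the 15 genes listed for the pathway, all of which were tested, 8 had a duodenal effect called above the splenic one, 2 below, and 5 were not called (median difference 0.34 log2, against -0.01 over all genes tested). In duodenum 10 of the 15 rose and 1 fell, and in spleen none rose and 1 fell. Over all genes tested, 15.6% rose and 16.2% fell in duodenum, and 4.69% rose and 3.66% fell in spleen. Differences were called above 0 for 10.9% and below 0 for 9.13%. This list and those below were chosen with earlier results of these data known. Nfkb2, the precursor of the p52 subunit (chr19:46304320-46312385), stood at 31.6, 30.2 and 34.5 CPM in duodenum with isotype and at 203, 199 and 195 CPM with AC H6. In spleen the same gene read 135, 146 and 149 CPM with isotype and 153, 184 and 152 CPM with AC H6. So the duodenal groups lay far apart and the treated duodenum stood above every spleen library, while the spleen groups were separate by a few CPM only. Its log2 change was 2.63 ± 0.08 in duodenum (adjusted p = 2.42e-09) and 0.18 ± 0.08 in spleen (adjusted p = 0.145), a difference of 2.45 ± 0.11 (adjusted p = 1.426e-07).

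Map3k14, encoding the kinase NIK (chr11:103219762-103267472), moved in opposite directions. Duodenum read 10.2, 10.8 and 11.8 CPM with isotype and 33.3, 31.1 and 32.8 CPM with AC H6, whereas spleen read 49.7, 53.8 and 54.2 against 41.2, 46.9 and 43.5 CPM. Neither organ's groups overlapped, and all treated duodenal libraries remained below the splenic ones. The duodenal rise of 1.56 ± 0.07 and the splenic fall of -0.26 ± 0.07 (adjusted p = 0.0364) differed by 1.82 ± 0.10 (adjusted p = 6.102e-07). Relb, the partner of p52, rose by 1.03 ± 0.09 in duodenum and had an effect of -0.15 ± 0.09 in spleen (difference 1.18, adjusted p = 0.000105). Traf3 and Traf2, adaptors that keep NIK low, rose by 0.99 and 0.91 in duodenum and read -0.03 and 0.02 in spleen. The ubiquitin ligase gene Birc3 rose by 0.86 in duodenum against -0.16 in spleen, whereas its neighbour Birc2 had a difference of 0.11 (95% interval -0.09 to 0.31) that was not called.

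The receptor gene Ltbr behaved unlike Nfkb2 and Relb, and among the ligand genes a difference was called for Ltb only. Ltbr read 160, 160 and 152 CPM in duodenum with isotype and 142, 135 and 134 CPM with AC H6, and 19.2, 22.9 and 18.6 against 23, 23 and 24.6 CPM in spleen. Duodenum thus held the higher level of receptor transcript throughout, a little lower in every treated library, and the splenic groups met within 0.1 CPM. Neither organ's effect was called alone (0.21 and -0.20, adjusted p = 0.0932 and 0.0525), but their difference of -0.41 ± 0.11 was (adjusted p = 0.0167). It missed the threshold without spleen isotype 1, isotype 3 or AC H6 3 (adjusted p = 0.059, 0.063 and 0.055) or with the erythroid covariate (adjusted p = 0.0938), and the count of 2 pathway genes below 0 was then 1. Ltb, the membrane-bound ligand subunit, rose in duodenum from 1.59, 1.66 and 2.16 to 5.05, 4.57 and 5.08 CPM. It remained at 198 to 235 CPM in all 6 spleen libraries, and its effects differed by 1.5 ± 0.14 (adjusted p = 4.111e-05). For the ligand genes Lta and Tnfsf14 the difference was not called, at duodenal levels below 1 CPM where few counts stand behind each value. Chuk, the kinase subunit IKK alpha, fell in duodenum alone (-0.48 against -0.04, adjusted p of the difference = 0.00417).

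**Figure D2:**
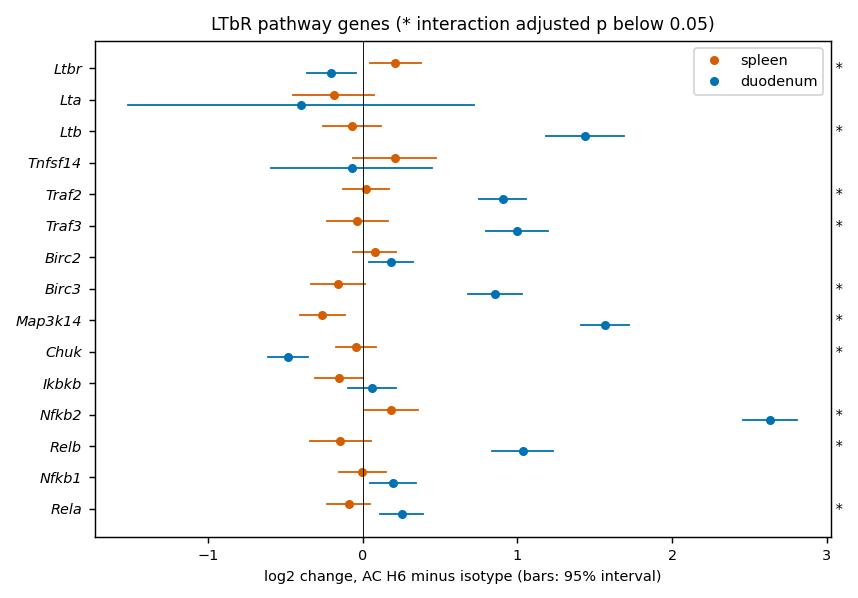
Log2 change of AC H6 over isotype in spleen and in duodenum for the 15 LTbR pathway genes, with 95% intervals from the fit of 3 libraries per group; a star marks a called difference between the organs. Nfkb2 and Map3k14 have the widest gaps, at 2.45 and 1.82 log2 units, and for Ltbr and Chuk the called difference, duodenum minus spleen, is below 0.

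Products known to follow NF-kB and the chemokines of lymphoid stroma rose mostly in duodenum. Of 18 tested NF-kB feedback and target genes, 12 rose and 2 fell in duodenum and 1 rose in spleen. The shares of all genes tested were 15.6%, 16.2% and 4.69% in that order. Within the list a difference was called above 0 for 7 and below 0 for 2, against 10.9% and 9.13% of all genes tested. Icam1, the endothelial and epithelial ligand of leukocyte integrins (chr9:21015985-21028817), read 9.64, 9.82 and 10.8 CPM in duodenum with isotype and 52.2, 51.4 and 51.4 CPM with AC H6. In spleen it read 92.0, 100 and 97.2 against 90.0, 100 and 96.4 CPM, with the groups interleaved. Its duodenal effect of 2.35 ± 0.06 exceeded the splenic -0.02 ± 0.06 by 2.37 ± 0.09 (adjusted p = 2.275e-08). Nfkbie, an inhibitor of NF-kB made in response to it, rose by 1.72 in duodenum with -0.15 in spleen.

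Among 13 tested genes for lymphoid stroma chemokines and adhesion, 8 rose and 1 fell in duodenum and 1 rose in spleen. The shares of all genes tested were again 15.6%, 16.2% and 4.69%. Within the list the difference was above 0 for 7 and below 0 for 1, against 10.9% and 9.13% of all genes tested (median difference 1.15). Without spleen isotype 1 no gene of this list was called below 0. Cxcl13, the chemokine that draws B cells into follicles (chr5:95956951-95961068), read 1.74, 2.66 and 1.97 CPM in duodenum with isotype and 32.5, 31.2 and 40.9 CPM with AC H6. Spleen read 103, 79.6 and 106 against 80.9, 89.0 and 96.0 CPM, so that its groups overlapped while those of duodenum lay 16.1-fold apart in the fit. The difference was 4.13 ± 0.23 (adjusted p = 6.102e-07). Ccl19, a chemokine for T cells and dendritic cells, moved the same way from a lower base. It read 0.205, 0.346 and 0.315 CPM in duodenum with isotype and 3.11, 3.23 and 2.54 CPM with AC H6, while all 6 spleen libraries lay between 87.4 and 96.3 CPM. Madcam1, the addressin of mucosal venules (chr10:79664559-79668537), rose by 2.09 ± 0.12 in duodenum and had an effect of -0.29 ± 0.10 in spleen (adjusted p = 0.0892), a difference of 2.39.

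Among genes that could be named (mean log2 CPM of at least 1), the 7 duodenum-only rises with the smallest interaction p include several of these genes. Mfge8, a secreted bridge between phagocytes and dying cells (chr7:79133768-79149060), read 91.6, 89.9 and 84.9 CPM in duodenum with isotype and 708, 667 and 692 CPM with AC H6. In spleen it read 559, 620 and 590 against 587, 606 and 618 CPM. Its duodenal groups lay 7.76-fold apart, which put the treated duodenum above all 6 spleen libraries, and its splenic groups overlapped. The difference of 2.92 ± 0.08 had the smallest adjusted p of any gene tested (2.566e-09). Marcksl1, an actin-binding protein, reached a duodenal change of 2.66 with 0.01 in spleen, and Lpcat4, an acyltransferase of membrane lipids, one of 2.10 with -0.03. The interferon-inducible Ifi205 rose by 1.75 in duodenum, from 4.16, 4.18 and 4.64 to 13.6, 14.5 and 15.5 CPM, with 51.6 to 57.5 CPM in all spleen libraries.

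Opposite responses were led by Ubd, which encodes the ubiquitin-like modifier FAT10 (chr17:37193892-37196095). In duodenum it read 0.359, 0.311 and 0.354 CPM with isotype and 22.4, 24.1 and 23 CPM with AC H6. In spleen it read 5.74, 4.33 and 5.64 CPM with isotype and 2.49, 3.09 and 1.88 CPM with AC H6. Every treated duodenal library lay above every spleen library, every untreated one below, and neither organ's groups overlapped. The duodenal change of 6.08 ± 0.28, or 67.5-fold, and the splenic fall of -1.02 ± 0.16 (adjusted p = 0.00434) differed by 7.10 ± 0.32 (adjusted p = 2.275e-08).

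Il4i1, an amino acid oxidase of antigen presenting cells and B cells, read 2.00, 1.38 and 1.81 CPM in duodenum with isotype and 19.2, 18.9 and 20.1 CPM with AC H6. Its splenic values of 97.2, 93.8 and 87.7 CPM became 63.6, 75.3 and 68.6 CPM, again with no overlap (3.51 ± 0.12 and -0.43 ± 0.08, difference 3.93 ± 0.15). Colq, the collagen tail of acetylcholinesterase, rose by 2.96 in duodenum and fell by 0.66 in spleen. Spib, a transcription factor of B cells, plasmacytoid dendritic cells and M cells of the gut epithelium, read 11.3, 9.72 and 9.63 CPM in duodenum with isotype and 103, 110 and 132 CPM with AC H6. Its splenic values were 372, 371 and 369 against 280, 347 and 299 CPM, lower in every treated library but not called (-0.26 ± 0.10, adjusted p = 0.105). Rac2, a GTPase of blood cells, had 1.03 in duodenum and -0.15 in spleen (adjusted p = 0.0579).

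In isotype libraries 361 of the 424 genes higher in duodenum and lower in spleen (85.1%) read higher in spleen than in duodenum, with a median log2 ratio of 2.10, against 50.4% and 0.02 over all genes tested. Among the 465 genes of the reverse pattern, 26 (5.59%) read higher in spleen and the median ratio was -2.06. Such shares were not particular to opposite responses: they were 83.3% for duodenum-only rises, 87.6% for unequal rises, 78.7% for shared rises and 10.5% for duodenum-only falls. The isotype values also enter both effects, so these shares are given as a description. Both organs' effects were called for 97 and 108 of them, 205 in all. Effects were modest in most, with medians of -0.27 in spleen and 0.43 in duodenum for the first group and of 0.26 and -0.30 for the second.

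**Figure D3:**
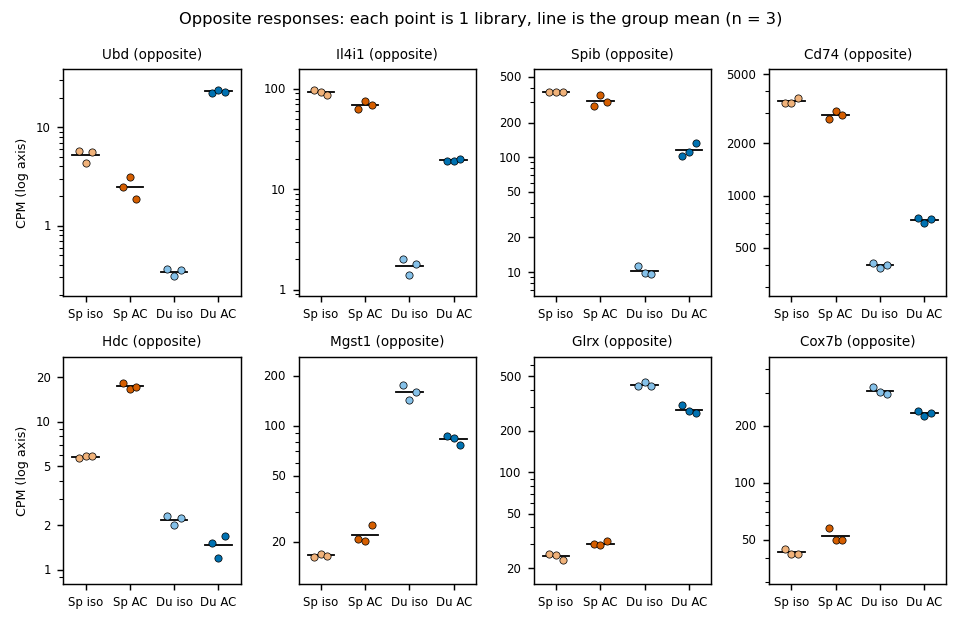
CPM on a log axis in each of the 12 libraries for 8 genes with opposite responses, 3 points per group with the group mean as a line. Ubd, Il4i1, Spib and Cd74 are higher with AC H6 in duodenum and lower in spleen, and Hdc, Mgst1, Glrx and Cox7b show the reverse.

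Most MHC class II genes had opposite signs in spleen and duodenum. Of 10 tested genes of class II antigen presentation to CD4 T cells, 8 rose and 1 fell in duodenum, while none rose and 6 fell in spleen. Over all genes tested, 15.6% rose and 16.2% fell in duodenum, and 4.69% rose and 3.66% fell in spleen. By class, 6 of the 10 were opposite and 1 was a shared fall, against 2.55% and 0.925% of all genes tested. A difference above 0 was called for 7, against 10.9% of all genes tested. Median effects were -0.26 in spleen, 0.63 in duodenum and 0.89 for the difference, against -0.00, -0.01 and -0.01 over all genes tested. Cd74, the invariant chain, read 408, 384 and 401 CPM in duodenum with isotype and 744, 698 and 730 CPM with AC H6. The treated duodenum lay above the untreated one throughout. In spleen the order was the reverse, with 3433, 3419 and 3672 CPM against 2776, 3072 and 2914 CPM. Its effects of 0.86 ± 0.06 and -0.26 ± 0.06 differed by 1.13 ± 0.09 (adjusted p = 1.076e-05). The class II chains H2-Ab1 and H2-Aa had duodenal changes of 0.72 and 0.60 and splenic changes of -0.27 and -0.28, all called. The count of 7 was found with each of the 12 libraries left out in turn.

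Differences above 0 were also called for most T cell and dendritic cell markers, and for fewer B cell markers. Of all genes tested, 10.9% had a difference above 0, 3.66% fell in spleen and 15.6% rose in duodenum. T cell genes had a difference above 0 for 11 of 12 tested, with 5 falls in spleen and 4 rises in duodenum, and their summed level went from 744 to 853 CPM to 595 to 663 CPM in spleen and from 59.4 to 62.4 CPM to 70.4 to 76.0 CPM in duodenum. Cd3e, the CD3 epsilon chain, read 4.62, 4.25 and 4.76 CPM in duodenum with isotype and 5.47, 5.44 and 5.89 CPM with AC H6. In spleen it read 41.9, 44.6 and 47.0 CPM against 33.7, 32.9 and 32.1 CPM. Its groups were separate in both organs (difference 0.74 ± 0.09, adjusted p = 0.00028), as were those of the coreceptor Cd4 (difference 0.81). The T cell count was less steady than these 2 genes, at 6 without duodenum isotype 1, duodenum AC H6 2, spleen isotype 3 or spleen AC H6 3 and at 7 without duodenum isotype 2 or spleen isotype 2. Dendritic cell genes had a difference above 0 for 9 of 12, including the integrin Itgax (0.92 in duodenum, -0.09 in spleen) and the lineage factor Zbtb46 (1.38 and 0.14). By class, 5 of these 12 were duodenum-only and 3 opposite. For B cell genes the count above 0 was 4 of 11, and 2 without duodenum isotype 1 or isotype 3. Natural killer and cytotoxic genes had 3 above 0 and 1 below among 10, against 10.9% and 9.13% of all genes tested. None was called among 9 plasma cell genes. B cell transcripts summed to 14.4 to 16.4 CPM and 18.7 to 20.8 CPM in duodenum, and to 3594 to 3926 CPM and 2881 to 3337 CPM in spleen. How far these cells contribute to the class II values was not tested.

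Interferon gamma response genes differed between the organs for 17 of 21 members tested, all above 0. The share of all genes tested was 10.9% for such differences and 15.6% for rises in duodenum. It was 16.2% for falls in duodenum, and 4.69% and 3.66% for rises and falls in spleen. In duodenum 19 of the 21 rose, and in spleen 1 rose and 1 fell (median effects 0.92 and -0.02). The count lay between 16 and 18 with each library left out. Cxcl9, a chemokine for activated T cells, read 3.03, 2.90 and 3.46 CPM in duodenum with isotype and 7.80, 10.04 and 10.8 CPM with AC H6. In spleen its values were 22.7, 23.3 and 23.7 against 18.3, 19.0 and 19.7 CPM, so that the order reversed (1.61 and -0.29, the latter with adjusted p = 0.0822). Cxcl10, a ligand of the same receptor, rose in both organs but by unequal amounts. Duodenum went from 2.31, 2.08 and 2.63 to 13.4, 15.6 and 14.3 CPM and spleen from 17.3, 15.4 and 19.8 to 29.0, 30.1 and 29.4 CPM (2.63 ± 0.12 and 0.76 ± 0.09, adjusted p of the difference = 1.201e-05). Gbp3, an interferon-induced GTPase, had 1.24 in duodenum and 0.01 in spleen. In the MHC class I and immunoproteasome list 7 of 14 genes had a difference above 0, with 10 rises and 1 fall in duodenum. In spleen none was called by edgeR, 3 by DESeq2 and 2 by limma-voom, with 4 at an unadjusted p below 0.05. The list's 1 gene below 0 was not called when any of 8 of the libraries was left out (all but duodenum isotype 2, isotype 3 and AC H6 3 and spleen AC H6 1).

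The reverse pattern, higher in spleen and lower in duodenum, was led by Hdc, histidine decarboxylase, which makes histamine (chr2:126593667-126619299). In spleen it read 5.74, 5.83 and 5.85 CPM with isotype and 18.3, 16.7 and 17.2 CPM with AC H6. Duodenum read 2.31, 2.00 and 2.24 against 1.52, 1.20 and 1.70 CPM. The rise of 1.58 ± 0.10 in spleen and the fall of -0.55 ± 0.13 in duodenum (adjusted p = 0.00896) differed by -2.13 ± 0.17 (adjusted p = 1.148e-05), and neither organ's groups overlapped. Mgst1, a membrane glutathione transferase, went from 177, 143 and 160 to 87.1, 84.4 and 76.8 CPM in duodenum and from 16.2, 16.9 and 16.4 to 20.8, 20.1 and 25.0 CPM in spleen (-0.95 and 0.41). Glrx, glutaredoxin, showed -0.60 and 0.31, both called. Nfe2l2, the transcription factor NRF2, fell by 0.56 in duodenum and had 0.14 in spleen (adjusted p = 0.0845), and Oat, ornithine aminotransferase, fell by 0.79 with 0.14 in spleen (adjusted p = 0.17). Heatr5a, a gene of endosomal trafficking, rose by 0.33 in spleen and fell by 0.41 in duodenum.

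Mitochondrial respiratory chain genes differed in all 20 members tested, each with the duodenal effect below the splenic one, against 9.13% of all genes tested. The list was chosen with earlier results known, so its count is a description. In duodenum 19 fell (16.2% of all genes tested), and in spleen 3 rose (4.69%) and none fell (3.66%). Median effects were -0.33 in duodenum and 0.17 in spleen, against -0.01 and -0.00 over all genes tested. Cox7b, a subunit of complex IV, read 320, 302 and 296 CPM in duodenum with isotype and 240, 225 and 233 CPM with AC H6, and 44.8, 42.3 and 42.0 against 57.7, 50.0 and 50.2 CPM in spleen. Its groups did not overlap in either organ (-0.40 ± 0.06 and 0.29 ± 0.06, difference -0.69, adjusted p = 0.000419). Cox5a showed -0.38 in duodenum and 0.23 in spleen (adjusted p = 0.0537). The count was between 17 and 20 with each library left out, the lowest without spleen isotype 1.

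Genes of sterol, fat and sugar handling were counted by list. Of all genes tested, 16.2% fell in duodenum, 4.69% rose in spleen and 9.13% had a difference below 0. Of 18 cholesterol synthesis genes 17 fell in duodenum, and 16 had a difference below 0 (median -0.93). In spleen none was called by edgeR, DESeq2 or limma-voom, with 2 at an unadjusted p below 0.05. Fdft1, squalene synthase, read 116, 77.9 and 120 CPM in duodenum with isotype and 53.1, 51.6 and 55.1 CPM with AC H6, with 22.5 to 27.6 and 27.6 to 31.7 CPM in spleen. Its duodenal groups were separate and its splenic ones met (-0.97 ± 0.14 and 0.22 ± 0.14, difference -1.19). Nsdhl, a later sterol enzyme, showed -0.48 and 0.08. Fatty acid oxidation and PPAR target genes had 10 falls in duodenum and 1 rise in spleen among 18, with 9 differences below 0, and 5 without duodenum AC H6 2 or spleen isotype 2. Among them Hadha, of the mitochondrial trifunctional protein, showed -0.39 in duodenum and 0.08 in spleen. Of 16 intestinal lipid absorption genes 9 fell in duodenum and 4 rose in spleen, and 9 had a difference below 0 (5 without duodenum isotype 1, isotype 3 or AC H6 2 or spleen isotype 3, and 4 without spleen AC H6 1). Among 18 brush border genes 10 fell in duodenum, and 5 differed between the organs. Mgam, the intestinal maltase, and Slc5a1, the glucose transporter SGLT1, are 2 of these. They fell by 0.43 and 0.38 in duodenum, where Slc5a1 stood between 3083 and 4255 CPM, and read below 8 CPM in spleen.

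Leading duodenum-only falls outside those lists included Dnase1, a secreted nuclease, which went from 9.95, 8.47 and 9.12 to 2.36, 2.5 and 2.89 CPM in duodenum. Spleen read 4.66, 4.19 and 4.49 against 3.14, 3.98 and 3.93 CPM, lower in each treated library by an amount that was not called (-1.82 and -0.27, adjusted p in spleen = 0.189). Pycard, the inflammasome adaptor ASC, fell by 0.66 in duodenum with 0.04 in spleen. Acat1, Decr1 and Atad3a, which act in mitochondrial ketone, fatty acid and nucleoid metabolism, fell by 0.63, 0.57 and 0.60 in duodenum with 0.10, 0.05 and -0.04 in spleen. Intestinal epithelial markers summed to 10720 to 11770 CPM with isotype and to 9199 to 9877 CPM with AC H6 in duodenum, and the part of this in the falls was not tested.

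Unequal responses of the same sign were larger in duodenum for 143 of the 151 genes, mostly rises. Ccl9, a chemokine for myeloid cells, read 14.8, 18.6 and 13.7 CPM in duodenum with isotype and 115, 127 and 129 CPM with AC H6. Spleen read 9.09, 8.66 and 8.12 against 10.3, 11.9 and 12.2 CPM, separate as well but close (2.97 ± 0.10 and 0.41 ± 0.11, difference 2.56 ± 0.15). Stx11, a vesicle fusion protein of cytotoxic and myeloid cells, rose by 2.78 in duodenum and 0.40 in spleen. Plxnb1, a semaphorin receptor, rose by 1.56 and 0.29. Complement component C3 went from 55.8, 73.3 and 65.6 to 314, 273 and 330 CPM in duodenum and from 689, 780 and 748 to 953, 957 and 1068 CPM in spleen (2.23 and 0.43). Of 18 complement genes 12 rose in duodenum and 7 in spleen, against 15.6% and 4.69% of all genes tested. There were 10 differences above 0 (10.9% over all genes) and none below. With duodenum isotype 3 or duodenum AC H6 3 left out, 1 was below.

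Macrophage and monocyte genes gave 7 members of that class. Among 19 tested, 15 rose in duodenum and 11 in spleen, against 15.6% and 4.69% of all genes tested. A difference was called above 0 for 10 and below 0 for 1, against 10.9% and 9.13%. Vcam1, an adhesion molecule of stroma and red pulp macrophages, rose by 1.19 in duodenum and 0.25 in spleen. Ccr2, the receptor of inflammatory monocytes, read 1.69, 1.94 and 1.65 CPM in duodenum with isotype and 11.8, 10.8 and 13.1 CPM with AC H6. Its splenic groups overlapped, at 28.2 to 41.5 CPM over all 6 libraries (difference 2.87 ± 0.21). The summed level of the list went from 286 to 328 CPM to 487 to 538 CPM in duodenum and from 2170 to 2325 CPM to 2605 to 2786 CPM in spleen.

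Spleen-only responses comprised 163 rises (0.979% of genes tested) and 106 falls (0.636%). Slfn4, a schlafen gene of myeloid cells (chr11:83175186-83190216), read 11.8, 11.01 and 9.65 CPM in spleen with isotype and 57.3, 33.6 and 49.8 CPM with AC H6. In duodenum it read 13.3, 13.7 and 16.6 against 16.6, 17.8 and 20.3 CPM, where the groups met. Its splenic change of 2.12 ± 0.17 exceeded the duodenal 0.33 ± 0.17 (adjusted p = 0.175), a difference of -1.79 ± 0.24 (adjusted p = 0.000538). Vcan, the matrix proteoglycan versican, read 2.10, 2.64 and 2.11 against 6.75, 7.64 and 5.37 CPM in spleen and 4.90 to 6.38 CPM across duodenum with overlapping groups (difference -1.52 ± 0.23). Tppp3, a tubulin-binding protein, rose by 1.37 in spleen with -0.08 in duodenum.

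Among the other spleen-only rises, Dgat2, which makes triglyceride, went from 5.68, 5.76 and 5.24 to 9.51, 9.42 and 9.91 CPM in spleen. In duodenum it ran at 702, 821 and 765 CPM with isotype and 705, 713 and 688 CPM with AC H6, with overlap (0.79 ± 0.07 and -0.12 ± 0.06, adjusted p of the difference = 5.49e-05). Gsr, glutathione reductase, and G6pdx, the first enzyme of the pentose phosphate pathway, rose by 0.64 and 0.44 in spleen with -0.15 and -0.11 in duodenum. Nr1h3, the sterol-sensing receptor LXR alpha, rose by 0.46 in spleen with -0.08 in duodenum.

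Spleen-only falls included Kif21a, a kinesin, from 2.16, 2.28 and 2.21 to 0.919, 0.728 and 0.819 CPM, against 21.3 to 25.6 CPM in all duodenal libraries. Its difference of 1.49 ± 0.17 had the smallest adjusted p of the 5 falls named (0.000115). Klrd1, the CD94 chain of natural killer cell receptors, went from 25.7, 24.1 and 27.4 to 16.7, 17.6 and 17.2 CPM in spleen and from 2.67, 2.25 and 2.60 to 2.87, 3.23 and 2.70 CPM in duodenum. Treated spleens were lower without overlap and treated duodena slightly higher, the latter not called (-0.58 and 0.23, difference 0.81 ± 0.13). Carns1, carnosine synthase, fell by 0.71 in spleen with 0.17 in duodenum, and the laminin receptor chain Itgb4 by 0.84 with -0.12. Stk11ip, a partner of the kinase LKB1, fell by 0.40 with 0.14 in duodenum. Kif21a, Klrd1, Carns1, Vcan, Tppp3 and Nr1h3 kept this class under all 23 other settings.

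Neutrophil genes rose throughout in spleen and in part in duodenum. All 18 tested rose in spleen (background 4.69%) with a median of 1.46. In duodenum 6 rose (background 15.6%) and 1 fell (16.2%) with a median of 0.62. Their summed level went from 666 to 1026 CPM to 1990 to 2807 CPM in spleen and from 79.6 to 88.8 CPM to 127 to 147 CPM in duodenum. Differences were called below 0 for 7 and above 0 for 2, against 9.13% and 10.9% of all genes tested. The first count was 3 without duodenum isotype 3 or AC H6 2 and 4 without duodenum isotype 1, isotype 2 or AC H6 1 or spleen AC H6 1 or AC H6 3. The second was 1 without duodenum isotype 2, isotype 3, AC H6 1 or AC H6 3 or spleen isotype 3 or AC H6 3. Cd177, a neutrophil surface protein, went from 17.7, 17.3 and 11.2 to 40.3, 35.0 and 46.5 CPM in spleen. Duodenum read 3.80, 10.1 and 6.33 against 4.87, 5.29 and 5.54 CPM with overlap (1.40 and -0.40, difference -1.80 ± 0.37). Retnlg, a resistin-like protein of neutrophils, moved in opposite directions, at 0.43 in spleen (adjusted p = 0.0497) and -0.61 in duodenum. Megakaryocyte genes rose in spleen for 8 of 10 and in duodenum for 1, but 1 difference was called, none without duodenum isotype 2 and 3 without spleen AC H6 2. Erythroid genes had a median splenic effect of 1.14, with none of 16 called in spleen by edgeR, 15 at an unadjusted p below 0.05, 2 called by DESeq2 and 1 by limma-voom. In duodenum none was called by any of the 3 tools or at an unadjusted p below 0.05. Of their differences 1 was called, but none without duodenum isotype 1, 2 or 3, duodenum AC H6 1 or 2 or spleen AC H6 1, and 5 without spleen isotype 2.

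**Figure D4:**
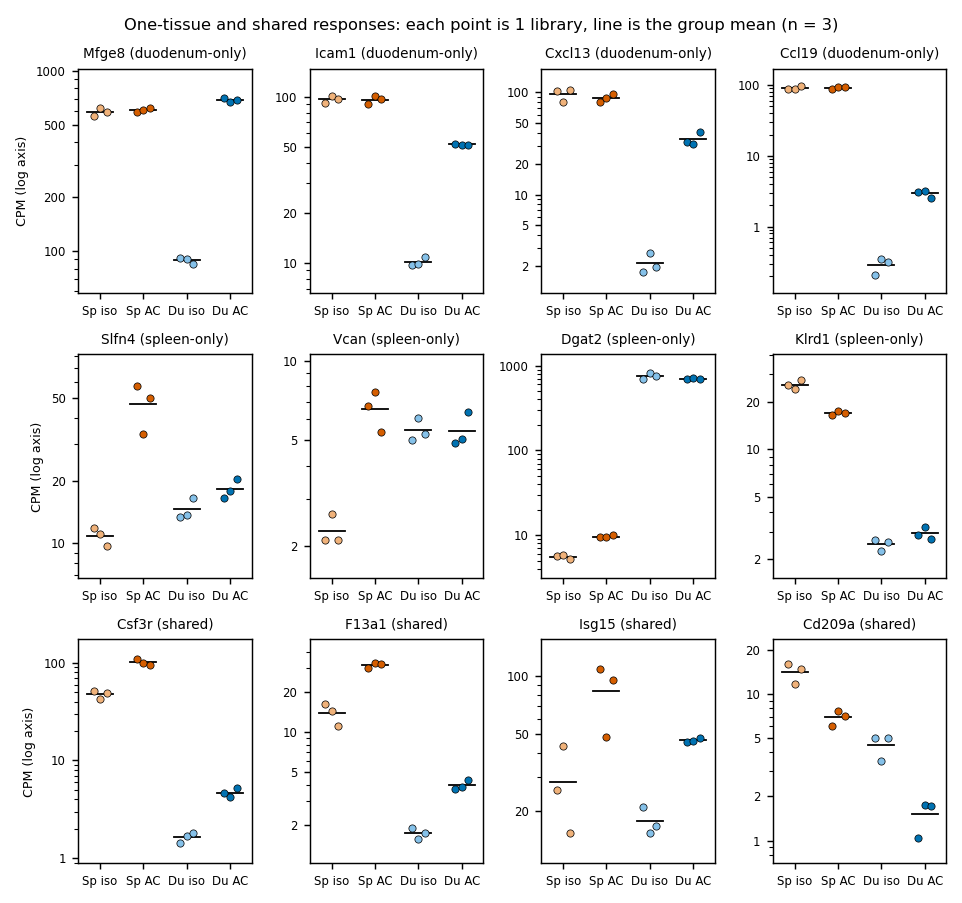
CPM on a log axis in each of the 12 libraries for 12 genes, 3 points per group with the group mean as a line: duodenum-only (Mfge8, Icam1, Cxcl13, Ccl19), spleen-only (Slfn4, Vcan, Dgat2, Klrd1) and shared responses (Csf3r, F13a1, Isg15, Cd209a). Mfge8 goes from 84.9 to 91.6 CPM to 667 to 708 CPM in duodenum at 559 to 620 CPM in spleen, and F13a1 has the same log2 change of 1.21 in both organs.

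Shared responses held 169 rises (1.01%) and 154 falls (0.925%), with median changes of 0.50 in spleen and 0.53 in duodenum among the rises. F13a1, a coagulation factor chain of monocytes and platelets (chr13:36867178-37050244), read 16.1, 14.2 and 10.9 against 29.9, 32.8 and 32.3 CPM in spleen. Duodenum read 1.90, 1.56 and 1.73 against 3.73, 3.84 and 4.33 CPM. Both organs' treated libraries stood apart from the untreated ones by the same change of 1.21, with a difference of 0.00 (95% interval -0.43 to 0.44). Csf3r, the receptor for granulocyte colony-stimulating factor, went from 51.9, 42.2 and 48.7 to 109, 99.6 and 94.6 CPM in spleen and from 1.44, 1.69 and 1.81 to 4.69, 4.2 and 5.19 CPM in duodenum. Its changes of 1.09 and 1.5 differed by 0.42 (0.06 to 0.77, adjusted p = 0.089). Haptoglobin (Hp) and the neutrophil alarmin S100a8 changed by 1.67 and 1.52 in spleen and by 1.63 and 1.36 in duodenum, but from duodenal levels below 0.5 CPM. The duodenal call was lost for Hp without duodenum isotype 1, isotype 3 or AC H6 1 and for S100a8 without duodenum AC H6 3.

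Of 22 type I interferon genes tested, 11 were shared responses, against 1.94% of all genes tested. In duodenum 17 rose and in spleen 14, none fell, and the difference was called above 0 for 3 (6 without duodenum isotype 1 and 7 without spleen AC H6 3) and below 0 for none, or 1 without spleen isotype 2, spleen AC H6 2 or duodenum AC H6 3. Isg15, a ubiquitin-like modifier (chr4:156199424-156200818), read 20.98, 15.4 and 16.8 CPM in duodenum with isotype and 45.4, 45.8 and 47.6 CPM with AC H6. Spleen read 25.7, 43.5 and 15.4 against 108, 48.4 and 94.8 CPM. The splenic values scattered far more, isotype 2 and AC H6 2 lying within 5 CPM of each other, although the groups did not overlap. Changes of 1.39 ± 0.34 and 1.56 ± 0.33 left a difference of -0.17 with a wide interval (-1.20 to 0.87). Oas3, an antiviral RNA sensor, showed the same order of spleen libraries, with 1.31 in duodenum and 1.11 in spleen. The splenic call of both genes was lost without spleen isotype 1, isotype 3, AC H6 1 or AC H6 3, and with the erythroid covariate (adjusted p = 0.159 and 0.307). Ifit2 and Zbp1, of the same list, had called differences of 1.20 and 1.25 with -0.06 and 0.03 in spleen.

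Promoter windows of RefSeq (build GRCm38.p6, the 250 bases before the start) were searched on both strands for 2 short motifs, in 11545 of the 16655 genes tested. The letters GAAANNGAA resemble the interferon-stimulated response element, and GGGANNTTC resembles an NF-kB site. These windows are shown because they belong to a pair of shared genes (Isg15 and Oas3) and to genes answering more in duodenum (Cxcl10, Madcam1 and Ifi205), all picked after their values and matches were seen. Capitals mark the matches, and each sequence reads 5′ to 3′ along its gene.
Isg15 (chr4:156200819-156201068, minus strand): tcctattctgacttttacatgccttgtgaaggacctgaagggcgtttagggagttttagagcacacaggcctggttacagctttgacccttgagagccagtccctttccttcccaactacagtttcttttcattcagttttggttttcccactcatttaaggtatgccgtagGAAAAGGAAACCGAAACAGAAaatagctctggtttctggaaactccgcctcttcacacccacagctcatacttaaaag
Oas3 (chr5:120777660-120777909, minus strand): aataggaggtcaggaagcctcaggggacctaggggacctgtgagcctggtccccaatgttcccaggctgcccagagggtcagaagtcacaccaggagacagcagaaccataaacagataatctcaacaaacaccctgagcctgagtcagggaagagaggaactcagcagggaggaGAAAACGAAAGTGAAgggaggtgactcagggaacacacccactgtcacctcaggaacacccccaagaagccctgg
Cxcl10 (chr5:92348890-92349139, minus strand): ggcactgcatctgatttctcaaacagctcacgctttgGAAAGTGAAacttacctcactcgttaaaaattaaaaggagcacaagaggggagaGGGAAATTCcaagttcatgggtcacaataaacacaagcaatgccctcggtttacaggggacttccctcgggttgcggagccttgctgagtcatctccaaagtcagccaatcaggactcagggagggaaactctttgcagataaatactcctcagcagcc
Madcam1 (chr10:79664309-79664558, plus strand): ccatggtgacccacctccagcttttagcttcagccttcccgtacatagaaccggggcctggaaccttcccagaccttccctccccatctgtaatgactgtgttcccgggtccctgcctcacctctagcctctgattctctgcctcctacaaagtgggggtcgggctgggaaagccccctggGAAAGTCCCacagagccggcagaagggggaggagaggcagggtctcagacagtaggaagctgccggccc
Ifi205 (chr1:174031756-174032005, minus strand): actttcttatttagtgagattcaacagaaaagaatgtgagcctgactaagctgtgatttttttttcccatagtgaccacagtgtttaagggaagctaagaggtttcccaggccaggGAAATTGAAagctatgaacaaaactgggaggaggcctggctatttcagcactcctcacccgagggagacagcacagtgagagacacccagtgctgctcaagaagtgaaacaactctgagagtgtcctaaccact

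Isg15 held 3 overlapping matches to the first motif between 78 and 58 bases before its start, and Oas3 held 2 that overlap between 75 and 61. Ifi205 held 1 between 134 and 126 bases before its start. Cxcl10 held 1 match to each motif, and Madcam1 held 1 to the second, read on the minus strand. The interferon motif was found in 6.38% of all promoters searched, in 17 of 124 shared rises (13.7%), 70 of 741 duodenum-only rises (9.45%), 12 of 93 unequal rises (12.9%) and 6 of 121 spleen-only rises (4.96%). It was present in 11 of 13 promoters of the interferon gamma list and 8 of 16 of the type I list. The NF-kB motif was found in 3.01% of all promoters, in 8 of 93 unequal rises (8.6%), 8 of 124 shared rises (6.45%), 27 of 741 duodenum-only rises (3.64%) and 0 of 121 spleen-only rises. It was present in 2 of 16 promoters of the NF-kB list and 3 of 13 of the interferon gamma list. A match is a run of letters and not a measured binding site.

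Shared falls by the naming rule comprised 4 genes. Cd209a, a lectin of monocyte-derived dendritic cells, went from 15.8, 11.6 and 14.9 to 6.03, 7.62 and 7.08 CPM in spleen and from 5.03, 3.49 and 4.99 to 1.05, 1.74 and 1.73 CPM in duodenum. All treated libraries lay below all untreated ones of their organ (-1.02 and -1.57, difference -0.55 with a 95% interval of -1.18 to 0.08). Aldh1a3, a retinaldehyde dehydrogenase, fell by 0.72 in spleen and 0.74 in duodenum (difference -0.02, -0.32 to 0.28), and the collagen receptor chain Itga11 by 0.89 and 1.05. Myom3, a muscle M-band protein, fell by 0.71 and 1.11, its splenic call being lost without spleen isotype 1, isotype 3 or AC H6 1. With the erythroid covariate the splenic adjusted p was 0.105 for Cd209a, 0.106 for Aldh1a3, 0.105 for Itga11 and 0.239 for Myom3. Cell cycle genes had 6 rises in spleen and 3 in duodenum among 20, against 4.69% and 15.6% of all genes tested. In spleen DESeq2 called 15 and limma-voom 7, and all 20 had an unadjusted p below 0.05. Their summed level in spleen was 887 to 1731 CPM with isotype and 1817 to 3325 CPM with AC H6, while that of the erythroid list was 49740 to 145100 and 115100 to 257000 CPM; its part in the result was not tested. None differed between the organs by edgeR, DESeq2 or limma-voom (1 by edgeR without spleen AC H6 2), with 1 at an unadjusted p below 0.05.

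**Figure D5:**
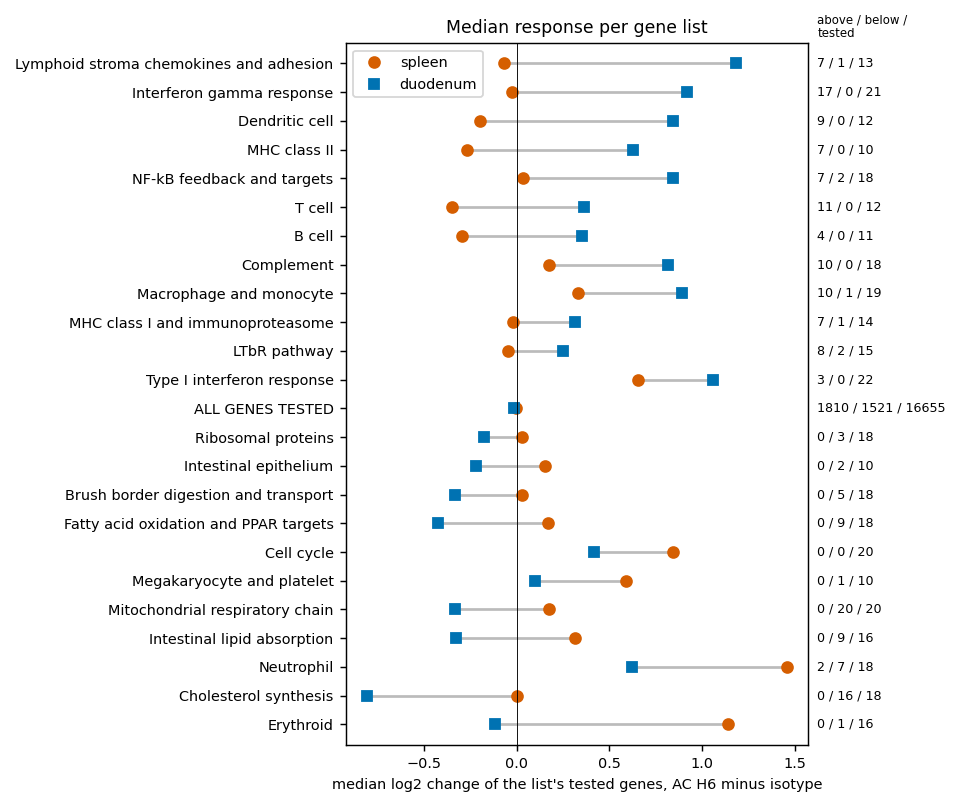
Median log2 change of AC H6 over isotype in spleen and in duodenum for 24 gene lists, with the number of members whose difference between organs was called above 0, below 0 and the number tested. Called differences lay above 0 for 17 of 21 interferon gamma and 7 of 10 MHC class II genes (10.9% of all genes tested). They lay below 0 for 20 of 20 mitochondrial and 16 of 18 cholesterol synthesis genes (9.13% of all genes tested). Lists were chosen with earlier results of these data known.

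Some values carry a limit from the library kit, which does not mark strand, and from the counts, which kept reads with several matches. Reads of Il4i1, Cxcl10, G6pdx and Fdft1 cannot be told apart where these genes overlap Atf5, Art3, Ikbkg and Ctsb. Slfn4, Gbp3, Oas3, Ifi205, Ccl19 and the class II chains have close relatives in the genome, and their counts are uncertain to the extent that reads were shared. Ccl19 had no position in the annotation used here.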

How the data were processed

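RNA of 6 spleen and 6 duodenum libraries was sequenced from kits that do not mark strand, per the labels' protocols. The deposited tables hold raw counts per gene, including reads with several matches. They were made with bcl2fastq 2.19, Trimmomatic, STAR 2.3 and edgeR on mm10, per the submitters' processing notes. For the counter and its annotation nothing is stated in these sources.

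Counts as deposited were fitted in R 4.3.3 with edgeR 4.0.16 (filterByExpr, TMM, glmQLFit, glmQLFTest) as 4 groups of 3, with no covariate, and effects of both organs and their difference were taken from that fit. P-values were adjusted over all 16655 genes tested (Benjamini-Hochberg, threshold 0.05), and the script was tested on simulated data. Depth of 13874091 to 45847467 counts limits genes below about 1 CPM. Separate mice per library are not stated, and the p-values therefore reflect the spread among these libraries, which may be technical. No 2 libraries agreed within sampling noise.

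Named genes were those of smallest interaction p per class at a mean log2 CPM of at least 1 (shared genes: largest smaller change), the LTbR list, and up to 3 genes per list. The members and lists were chosen with earlier results of these data known. Alternatives were DESeq2 1.42.0, limma-voom 3.58.1, other scaling and filters, covariates, replicate blocks, and each library left out. Positions are from GENCODE on GRCm38 (mm10).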

Additional observations from a re-analysis of the deposited data

Results flagged for a closer look

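The response to AC H6 differed between spleen and duodenum by the interaction test itself for 3331 genes, with the duodenal effect above the splenic one for 1810 and below it for 1521. Among the named genes, the 10 with the smallest interaction p each had the larger effect in duodenum. By the log2 difference, duodenum minus spleen, these were Ubd (7.10), Il4i1 (3.93), Spib (3.76), Colq (3.62), Mfge8 (2.92), Marcksl1 (2.65), Nfkb2 (2.45), Icam1 (2.37), Lpcat4 (2.13) and Map3k14 (1.82).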

How the results depend on the processing

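The count of interactions was within 1.5 times of 3331 under every setting run, but only just with the erythroid covariate. That setting gave the lowest count, 2240, and called 1994 of the 3331 again (59.9%). No scaling moved the median of all genes by 0.1 log2 or more. DESeq2 called 2214 genes in spleen and gave 426 spleen-only genes. Without the 2 libraries with most pancreas transcripts (duodenum isotype 2 and AC H6 3) there were 171 spleen-only and 199 shared genes. With the erythroid covariate spleen calls numbered 153, interactions below 0 numbered 936, and opposite, spleen-only, unequal and shared genes numbered 385, 36, 95 and 62. Organ effects from fits of 6 libraries each gave 608 spleen calls, 123 spleen-only and 135 shared genes. The cause was not tested. With each library left out in turn, calls ranged from 376 to 2685 in spleen, 4084 to 5474 in duodenum and 2556 to 3651 for the interaction (1445 to 1888 above 0, 943 to 1763 below). Opposite genes ranged from 580 to 1093, spleen-only from 83 to 645, duodenum-only from 1374 to 1685, unequal from 96 to 150 and shared from 108 to 509. Among the lists described, T cell genes with a difference above 0 numbered 6 by limma-voom, 4 with the erythroid covariate and 7 without those 2 duodenal libraries (11 otherwise), and B cell genes 2 by limma-voom, with that covariate or with the block within treatment (4). Neutrophil genes below 0 numbered 4 by limma-voom, with the block across groups or without those 2 libraries and 3 with the covariate (7), and those above 0 numbered 0, 2, 0 and 1 in that order (2). Type I interferon genes above 0 numbered 6 by DESeq2 and 5 with the covariate or the block within treatment (3), fatty acid genes below 0 numbered 5 (9) and brush border genes 3 (5) by limma-voom. The Lta difference, not called, ranged from -0.67 (without duodenum AC H6 3) to 0.33 (without duodenum isotype 3), with 0.09 without duodenum AC H6 2.

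Same-numbered libraries did not deviate together throughout (correlations from -0.21 to 0.45 between organs). Still, 8 of 12 correlated best with their own number, among them every isotype library (0.24, 0.45 and 0.13) but not every AC H6 library. The labels state no pairing, so the main fit did not treat them as pairs. A replicate block across the 4 groups gave 3230 interactions (3044 of them among the 3331) and a block within treatment gave 3082 (2816).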
